A study of Mus musculus with 12 samples.

Results

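Cells hold on to each other and to the matrix of the marrow through adhesion proteins, and 35 genes of this kind were followed in 12 RNA-seq libraries of mouse bone marrow cells. They encode 20 integrin subunits, P-selectin and its ligand, the hyaluronan receptor CD44, 8 receptors of the immunoglobulin superfamily, 2 cadherins and 2 intracellular activators of integrins. The genes were chosen by symbol and matched to the NCBI gene IDs of the 2 deposited count tables. All 35 were found among the 24028 genes of each table, and gene coordinates are given on GRCm38.

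The libraries fell into 4 groups of 3, all from C57BL/6 mice. The iMLL-ENL group was total marrow of mice carrying MLL-ENL, a leukemic fusion gene, as a knock-in that doxycycline switches on. These mice were kept on the drug until they had acute leukemia. The normal cells, wtLSK, were lineage-depleted marrow of control mice gated by flow sorting on c-kit and Sca-1, which holds stem cells and multipotent progenitors. The iMLL-ENL B220High and iMLL-ENL B220Low groups were leukemic cells of the same genotype and treatment, sorted for high or low B220, a form of the surface protein CD45. The labels give 3 animals per genotype but not the mouse behind a library, nor the age of the mice or the cells in which the transgene is driven. The p-values therefore measure the spread between libraries, which may be technical. In the first comparison genotype, leukemia, the sort and, per the labels, doxycycline differed between the groups and cannot be told apart.

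Integrins are receptors built from an alpha and a beta subunit, and the pairing sets the ligand. The beta2 integrins are confined to leukocytes and bind ICAM proteins and complement fragments, while many beta1 integrins bind collagen, laminin or fibronectin. In marrow, the pair of alpha4 and beta1 holds stem cells and leukemic cells to VCAM-1 on stromal cells. Selectins catch moving cells through sugars carried by ligands such as PSGL-1, and talin and kindlin switch integrins to their binding state from inside the cell.

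The starts of 6 members are shown first, namely those whose difference between iMLL-ENL and wtLSK passed the test under every alternative tried and whose window lies at, or within a few bases of, the start of the gene. Promoter windows were held for 21 of the 35 members, in 22 windows, and credited to RefSeq on build GRCm38.p6. Each line gives the 250 bases before the annotated start, 5′ to 3′ on the strand of the gene. Capitals mark matches, on either strand, to the core letters GAGGAA of PU.1 sites, TGTGGT of RUNX sites or AGATAA of GATA sites, named here after transcription factors of blood cells. The first 3 genes were higher and the last 3 lower in iMLL-ENL.
Itgam (chr7:128062390-128062639, plus strand): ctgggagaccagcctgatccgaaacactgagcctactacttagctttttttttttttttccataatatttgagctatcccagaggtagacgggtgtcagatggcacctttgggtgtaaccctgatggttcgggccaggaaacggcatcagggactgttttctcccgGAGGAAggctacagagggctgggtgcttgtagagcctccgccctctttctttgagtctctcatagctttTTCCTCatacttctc
Itga1 (chr13:115101965-115102214, minus strand): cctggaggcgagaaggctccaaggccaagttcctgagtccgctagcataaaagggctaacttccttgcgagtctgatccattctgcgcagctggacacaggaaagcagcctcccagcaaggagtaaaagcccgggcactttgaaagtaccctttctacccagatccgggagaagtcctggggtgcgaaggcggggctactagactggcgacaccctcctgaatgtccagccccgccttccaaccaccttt
Cd44 (chr2:102901666-102901915, minus strand): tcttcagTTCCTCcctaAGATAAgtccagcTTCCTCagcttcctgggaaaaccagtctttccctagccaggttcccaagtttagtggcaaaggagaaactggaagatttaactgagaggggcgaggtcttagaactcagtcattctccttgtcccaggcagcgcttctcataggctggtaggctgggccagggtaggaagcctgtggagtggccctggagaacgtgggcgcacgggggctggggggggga
Itga2 (chr13:114932101-114932350, minus strand): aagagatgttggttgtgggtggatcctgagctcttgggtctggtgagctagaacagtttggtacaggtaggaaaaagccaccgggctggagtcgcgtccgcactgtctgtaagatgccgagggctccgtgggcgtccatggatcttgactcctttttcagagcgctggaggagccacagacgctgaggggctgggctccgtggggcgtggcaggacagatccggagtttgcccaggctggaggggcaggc
Selp (chr1:164115014-164115263, plus strand): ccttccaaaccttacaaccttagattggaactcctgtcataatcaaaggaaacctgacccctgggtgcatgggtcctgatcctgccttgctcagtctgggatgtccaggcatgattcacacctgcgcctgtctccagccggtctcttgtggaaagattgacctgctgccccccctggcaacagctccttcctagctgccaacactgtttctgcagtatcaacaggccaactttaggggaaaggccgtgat
F11r (chr1:171437311-171437560, plus strand): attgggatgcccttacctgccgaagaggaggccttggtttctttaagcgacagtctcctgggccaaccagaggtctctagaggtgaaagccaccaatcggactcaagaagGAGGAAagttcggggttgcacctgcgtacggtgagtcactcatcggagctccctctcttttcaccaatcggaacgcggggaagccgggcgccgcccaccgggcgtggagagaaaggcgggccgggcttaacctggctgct
The Itgam window held the PU.1 letters on the same strand at -84 and on the opposite strand at -15, where -1 is the base just before the start. The Cd44 window held them on the opposite strand at -243 and -220 and the GATA letters on the same strand at -233. F11r, which was lower in iMLL-ENL, held the PU.1 letters on the same strand at -140, while the Itga1, Itga2 and Selp windows held none of the 3 motifs. Over all members the PU.1 letters stood in 9 of 22 windows, the RUNX letters in 3 and the GATA letters in 2. Among the 32851 windows of all genes the shares were 23.3% for PU.1, 14% for RUNX and 9.99% for GATA. A match is a run of letters and no measurement of binding.

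Depth ran from 18001563 to 22706882 counts in iMLL-ENL, 18227843 to 19607722 in wtLSK, 10921521 to 20069503 in B220High and 13441696 to 16626820 in B220Low. Levels are CPM, gene counts scaled by the library total, and levels of different genes are compared only as CPM per kilobase of the deposited gene width. In iMLL-ENL 16 of the 35 members averaged at least 50 CPM and 9 averaged under 1 CPM, against 14 and 4 in wtLSK. The B220High group had 15 and 6 such members, against 14 and 7 in B220Low. The sort of wtLSK could be seen in Kit, at 151, 130.04 and 88.3 CPM in iMLL-ENL and 1083, 1049.9 and 1349.6 CPM in wtLSK, and in Ly6a, which encodes Sca-1, at 1.71, 2.22 and 1.5 CPM in iMLL-ENL and 32.5, 82.1 and 45.4 CPM in wtLSK. Ptprc, the gene of CD45, had 534, 599.8 and 553 CPM in B220High and 610.3, 241 and 431 CPM in B220Low, and gene counts do not separate its B220 form.

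**Figure D1:**
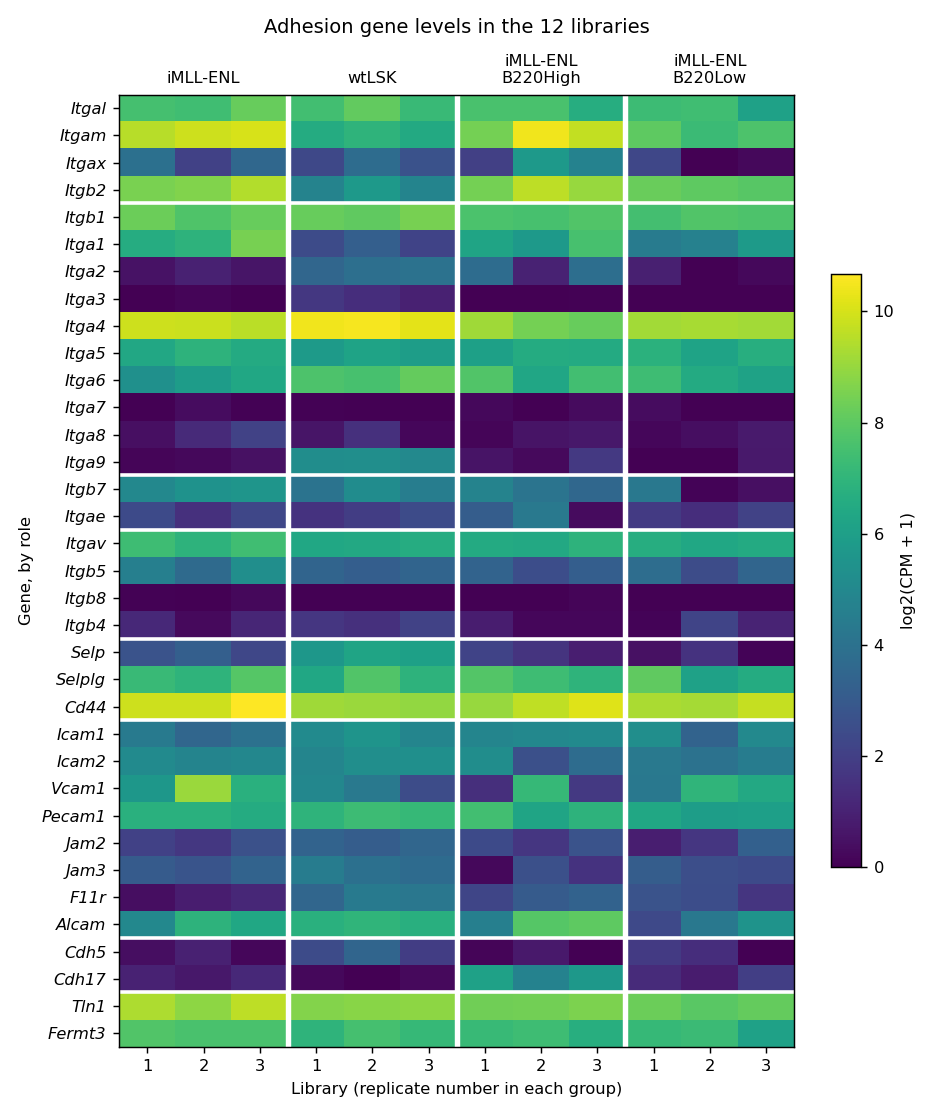
Heat map of the 35 adhesion genes (rows, grouped by role) in the 12 libraries (columns, 3 per group), coloured by log2(CPM + 1). Itgam and Itgb2 are bright in all 3 iMLL-ENL libraries, Itga9 and Selp are bright in wtLSK, and Cdh17 stands out in B220High.

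The first comparison set total leukemic marrow against normal LSK cells. The beta2 integrin genes Itgam and Itgb2, the collagen receptor subunit gene Itga1, Cd44, Vcam1 and both integrin activators were higher in iMLL-ENL, while several alpha subunits of beta1, P-selectin, ICAM-1, JAM-A and VE-cadherin were lower. Of the 35 members, 33 passed the filter on low counts, and edgeR's quasi-likelihood test with Benjamini-Hochberg adjustment over all genes called 11 higher and 8 lower at an adjusted p under 0.05. The called share was 57.6% of the members tested and 30.6% of all 13811 genes tested, with 15.5% of all genes higher and 15.1% lower. The members were chosen with earlier results of these data known, so these shares cannot show that adhesion genes changed more often than others. The median log2 fold change was 0.25 over the members and 0.05 over all genes. No library of one group overlapped the other group for 24 of the 33 members, 11 higher and 13 lower, while this held for 48.5% of all genes tested, 19.0% higher and 29.5% lower. The 11 higher ones were the 11 called higher. The count called higher was 5 without wtLSK library 1 or 3, 6 without wtLSK library 2 or iMLL-ENL library 3, and 7 with no filter on low counts. The members not tested, Itga7 and Itgb8, stayed under 1 CPM in every library. These are bulk libraries, in which fewer cells carrying a transcript and less of it per cell cannot be told apart.

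**Figure D2:**
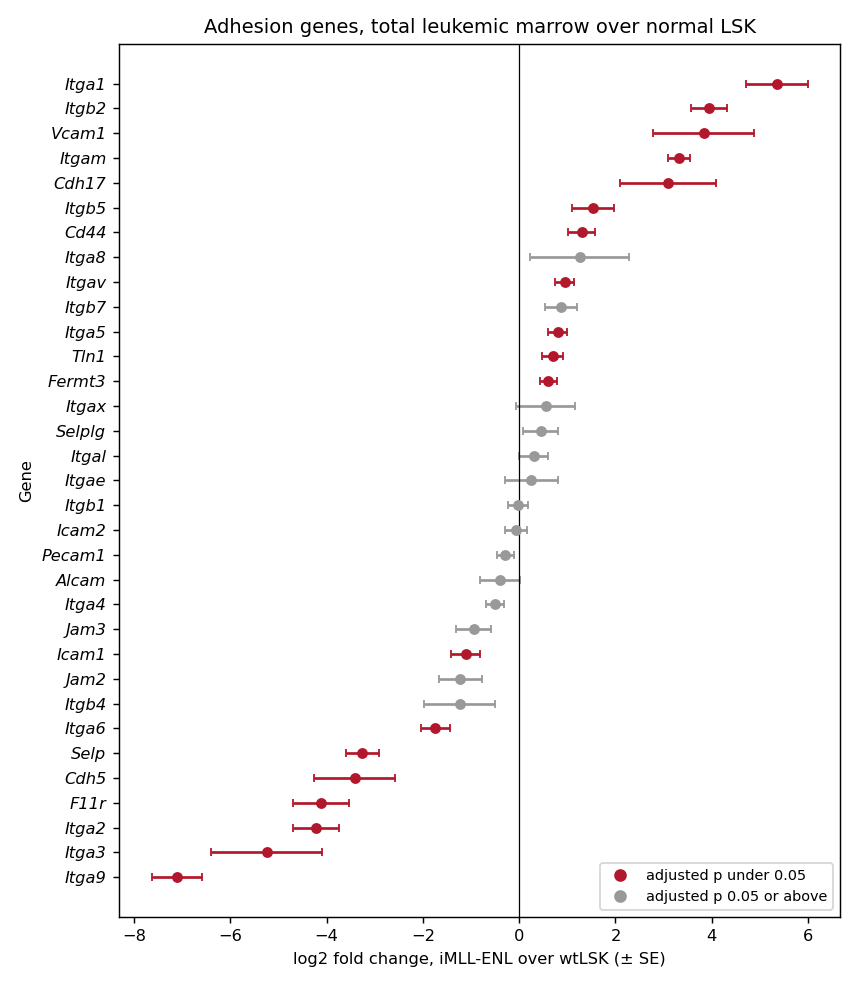
Log2 fold change of the 33 members tested (dots, bars ± SE), iMLL-ENL over wtLSK, ordered from highest to lowest. Red dots mark the 19 members with an adjusted p under 0.05, from 5.35 for Itga1 to -7.11 for Itga9.

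Among the beta2 integrins the change lay in alpha M and in the shared beta chain. Itgam (NCBI gene ID 16409, chr7:128062640-128118491, plus strand) encodes alpha M, or CD11b, which with beta2 forms the complement receptor of neutrophils and monocytes. It had 744, 916 and 1055 CPM in iMLL-ENL and 94.2, 121 and 89.4 CPM in wtLSK. Every leukemic library stood above every normal one, with a fitted ratio of 9.98 (log2 fold change 3.32, SE 0.23, adjusted p = 5.43e-05). Of the Itgam exon bases, 68.7% are shared with Gm49368, a gene on the same strand that was not counted, and the counts cannot separate them there. Itgb2 (NCBI gene ID 16414, chr10:77530329-77565708, plus strand), the beta chain of the leukocyte integrins, had 370.4, 407 and 685 CPM in iMLL-ENL and 26.4, 53.4 and 27.5 CPM in wtLSK. It too was separated without overlap, at 15.4 times the wtLSK level (log2 fold change 3.95, SE 0.38, adjusted p = 0.000204). Itgal, the alpha subunit of LFA-1 on leukocytes, had 184, 169 and 293 CPM in iMLL-ENL and 173, 271 and 147 CPM in wtLSK. Its groups overlapped and it was not called (log2 fold change 0.30, SE 0.29, adjusted p = 0.483). Itgax, which encodes CD11c of dendritic cells and macrophages, ranged over 3.22 to 14.5 CPM in iMLL-ENL and 3.92 to 12.6 CPM in wtLSK and was not called either (log2 fold change 0.55, SE 0.61, adjusted p = 0.539).

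Per kilobase, the partners of beta2 were differently composed in the groups. Of the summed level of the alpha subunits L, M and X, Itgam made up 77.5% ± 3.89 in iMLL-ENL and 30.2% ± 3.38 in wtLSK (SD, n = 3), and Itgal made up 21.3% ± 3.34 in iMLL-ENL and 66.8% ± 2.78 in wtLSK. Among the beta subunits listed, Itgb2 made up 65% ± 6.52 of the level per kilobase in iMLL-ENL and 12.6% ± 5.28 in wtLSK, and Itgb1 made up 26.1% ± 6.75 in iMLL-ENL and 74.6% ± 8.54 in wtLSK. The members with the highest levels per kilobase were Cd44, Itgb2 and Itgam in iMLL-ENL, at 171 ± 60.01, 165 ± 58.3 and 145 ± 24.9 CPM per kb, which did not differ beyond their spread. In wtLSK they were Itga4 at 122 ± 13.2, Cd44 at 78.2 ± 5.03 and Itgb1 at 71.9 ± 10.9 CPM per kb, and Cd44 and Itgb1 did not differ beyond their spread.

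Neutrophil markers, and most of the monocyte and macrophage markers tested, stood higher in the same libraries. All 7 neutrophil markers were called higher, their summed level ranging from 5663 to 23724 CPM in iMLL-ENL and from 1184 to 1981 CPM in wtLSK, with none at 0. Of 6 monocyte and macrophage markers tested, 4 were called higher and 0 lower, with log2 fold changes from -1.67 to 5.73. Over all genes tested, 15.5% were called higher and 15.1% lower. The 7 listed summed to 545 to 853 CPM in iMLL-ENL and 54.0 to 116 CPM in wtLSK, where C1qa was at 0. The part of these cells in the beta2 integrin levels was not tested. The neutrophil sum was highest in iMLL-ENL library 2 and Itgam in library 3.

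**Figure D3:**
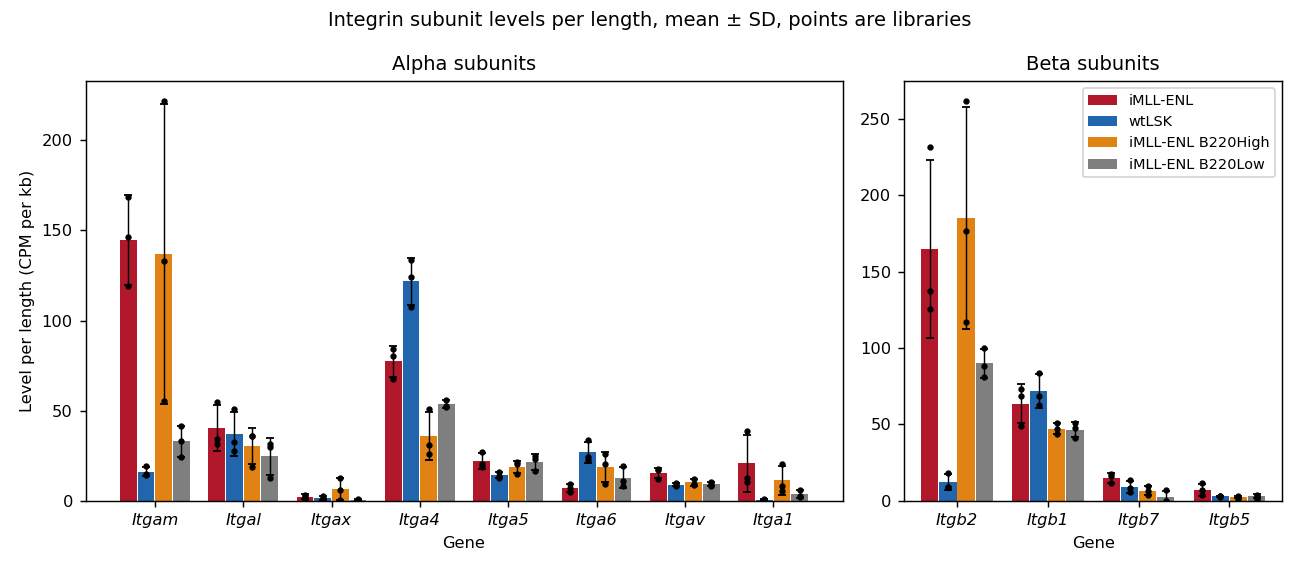
Level per length (CPM per kb) of 8 alpha subunits (left) and 4 beta subunits (right) in iMLL-ENL, wtLSK, B220High and B220Low, as bars with mean ± SD and points for the 3 libraries. Itgam and Itgb2 stand highest in iMLL-ENL and B220High, and Itga4 and Itgb1 lead in wtLSK.

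Alpha subunits of the beta1 family moved in both directions, and the shared chain was not called. Itgb1, the beta1 chain, had 312, 209.6 and 292 CPM in iMLL-ENL and 294, 269 and 359 CPM in wtLSK. The groups overlapped (log2 fold change -0.03, SE 0.21, adjusted p = 0.939). Of its 8 alpha subunits tested, Itga1 and Itga5 were higher and Itga2, Itga3, Itga6 and Itga9 lower, and Itga4 and Itga8 were not called.

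Itga1 and Itga2 are neighbours on chromosome 13 and encode the alpha subunits of collagen receptors. They went in opposite directions. Itga1 (NCBI gene ID 109700, chr13:114958079-115101964, minus strand) had 97.8, 119 and 360.2 CPM in iMLL-ENL and 4.4, 8.28 and 3.42 CPM in wtLSK. The lowest leukemic library lay far above the highest normal one, and the fitted ratio was 40.8 (log2 fold change 5.35, SE 0.64, adjusted p = 0.000711). Without iMLL-ENL library 3, the highest, the log2 fold change was 4.43. Itga2 (NCBI gene ID 16398, chr13:114833081-114932100, minus strand) had 0.417, 0.944 and 0.528 CPM in iMLL-ENL and 10.6, 13.8 and 15.2 CPM in wtLSK. It was under 1 CPM in all 3 leukemic libraries and above 10 CPM in all 3 normal ones (log2 fold change -4.23, SE 0.48, adjusted p = 0.000456).

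Itga5, the fibronectin receptor subunit, had 83.4, 119 and 90.02 CPM in iMLL-ENL and 56.1, 71.4 and 60.5 CPM in wtLSK. The groups did not overlap (log2 fold change 0.80, SE 0.21, adjusted p = 0.0194), but the call was lost without wtLSK library 1 (adjusted p = 0.104), 2 (0.0555) or 3 (0.0889). Itga4 (NCBI gene ID 16401, chr2:79255426-79333114, plus strand), the VCAM-1 and fibronectin receptor subunit, had 939, 893 and 753 CPM in iMLL-ENL and 1383, 1490.1 and 1200.2 CPM in wtLSK. All leukemic values were below all normal ones, yet the difference missed the threshold (log2 fold change -0.50, SE 0.18, adjusted p = 0.0662). It passed with DESeq2's size factors in edgeR (adjusted p = 0.045) and in DESeq2 (adjusted p = 0.0155). Exons of Itga4 overlap Cerkl, which the unstranded reads cannot separate. Itga4 was the leading alpha subunit of the set from alpha1 to alpha9, at 61.1% ± 11 of their summed level per kilobase in iMLL-ENL and 70.7% ± 4.26 in wtLSK.

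The laminin receptor subunits Itga6 and Itga3, and Itga9, were lower in leukemic marrow. Itga6 (NCBI gene ID 16403, chr2:71786886-71858427, plus strand) had 39.99, 59.2 and 79.9 CPM in iMLL-ENL and 203, 188 and 282 CPM in wtLSK, again without overlap (log2 fold change -1.75, SE 0.30, adjusted p = 0.00326). Itga3 was scarce everywhere, with 2 counts in all in iMLL-ENL and 92 in wtLSK. Scaled by depth, its level was 50.8 times lower in iMLL-ENL (95% counting interval 13.7 to 425), and its adjusted p was 0.00991. Without wtLSK library 1 the adjusted p was 0.0514. Itga9 (NCBI gene ID 104099, chr9:118606709-118901003, plus strand), which binds VCAM-1, tenascin and osteopontin, was the member with the most negative log2 fold change. It had 0.0927, 0.167 and 0.396 CPM in iMLL-ENL and 37, 37.7 and 31.4 CPM in wtLSK. A steady level in the normal cells stood against traces in the leukemic ones (log2 fold change -7.11, SE 0.52, adjusted p = 6.55e-05), and the log2 fold change was -7.97 without iMLL-ENL library 3. Itga8 ranged over 0.371 to 3.26 CPM in iMLL-ENL and 0.153 to 1.76 CPM in wtLSK and was not called (log2 fold change 1.25, SE 1.03, adjusted p = 0.394), and part of its exons overlaps E030013I19Rik.

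Alpha V and its partner beta5 were higher in iMLL-ENL. Itgav, which pairs with several beta chains to bind vitronectin and fibronectin, had 164, 118 and 168 CPM in iMLL-ENL and 80.5, 86 and 95.3 CPM in wtLSK. The groups did not overlap (log2 fold change 0.94, SE 0.20, adjusted p = 0.00883), though the adjusted p was 0.0571 without wtLSK library 1 and 0.0502 without library 2. Itgb5, a partner of alpha V on vitronectin, had 23.1, 11.8 and 37.5 CPM in iMLL-ENL and 9.72, 8.06 and 9.996 CPM in wtLSK. It was separated as well (log2 fold change 1.54, SE 0.43, adjusted p = 0.0279), but lost the call without iMLL-ENL library 3 (adjusted p = 0.0916) or wtLSK library 1 (0.0934), 2 (0.109) or 3 (0.0843). Itgb4, the laminin-binding chain of epithelia, ranged over 0.222 to 1.34 CPM in iMLL-ENL and 1.76 to 3.32 CPM in wtLSK and was not called (log2 fold change -1.24, SE 0.74, adjusted p = 0.244). Itgb7, the gut-homing partner of alpha4, ranged over 30.4 to 46.2 CPM in iMLL-ENL and 15.9 to 35.8 CPM in wtLSK (log2 fold change 0.87, SE 0.33, adjusted p = 0.0765). Its adjusted p was 0.0478 without wtLSK library 2. Itgae, which joins beta7 to bind E-cadherin, ranged over 1.78 to 4.31 CPM in iMLL-ENL and 1.99 to 4.49 CPM in wtLSK and was not called (log2 fold change 0.25, SE 0.55, adjusted p = 0.766).

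P-selectin was lower and CD44 higher in the leukemic samples. Selp (NCBI gene ID 20344, chr1:164115264-164150026, plus strand), which encodes the selectin of platelets and endothelium, had 5.65, 8.28 and 3.79 CPM in iMLL-ENL and 48.8, 74 and 65.7 CPM in wtLSK. The highest leukemic value was far under the lowest normal one, and the fitted level was 9.56 times lower (log2 fold change -3.26, SE 0.33, adjusted p = 0.000288). Part of the Selp exons overlaps the counted gene Gm16548. Selplg, which encodes the ligand PSGL-1, had 148, 123 and 229 CPM in iMLL-ENL and 79.9, 217 and 120.1 CPM in wtLSK. These values overlapped (log2 fold change 0.44, SE 0.37, adjusted p = 0.397). Cd44 (NCBI gene ID 12505, chr2:102811141-102901669, minus strand) had 923, 932 and 1631 CPM in iMLL-ENL and 560.1, 536 and 493 CPM in wtLSK. Library 3 was the highest of the leukemic samples, and all 3 stood above wtLSK (log2 fold change 1.29, SE 0.27, adjusted p = 0.00811).

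Most of the platelet and vessel markers tested differed between the groups in the same direction as Selp. The 6 megakaryocyte and platelet markers read summed to 3.72 to 4.73 CPM in iMLL-ENL and to 54.4 to 73.3 CPM in wtLSK, where Gp6 was at 0, and 4 of the 5 tested were lower in iMLL-ENL. Itga2b, on that list, is also expressed by normal stem cells. The 7 endothelial and stromal markers summed to 2.92 to 10.7 CPM in iMLL-ENL and 91.4 to 101 CPM in wtLSK, and none was at 0 in either group. Of the 5 tested, 4 were called lower and 1 was not called, with log2 fold changes from -7.83 to 0.74. Over all genes tested, 15.1% were called lower. Tek and Emcn, on that list, are also stem cell genes. The part of such cells in Selp, Cdh5 or the other endothelial members was not tested.

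Among the junctional receptors of the immunoglobulin superfamily, F11r was lower in iMLL-ENL. F11r (NCBI gene ID 16456, chr1:171437561-171464593, plus strand), which encodes JAM-A, had 0.324, 0.833 and 1.28 CPM in iMLL-ENL and 10.5, 19.7 and 18 CPM in wtLSK. The groups lay far apart (log2 fold change -4.12, SE 0.57, adjusted p = 0.00121), with a log2 fold change of -4.71 without iMLL-ENL library 3. Its relatives Jam2 and Jam3 ranged over 2.28 to 5.24 and 5.78 to 9.42 CPM in iMLL-ENL and 7.85 to 10.6 and 12.3 to 21.4 CPM in wtLSK. Both were separated without overlap and missed the threshold in edgeR, with log2 fold changes of -1.22 (SE 0.45, adjusted p = 0.07) and -0.95 (SE 0.37, adjusted p = 0.0876). DESeq2 called both lower (adjusted p = 0.0268 and 0.0415), and Jam2 was called in edgeR without iMLL-ENL library 3 (adjusted p = 0.0253). Of the Jam3 exon bases, 36.2% are shared with Gm48796 on the other strand, which was not counted.

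Among the ligands of leukocyte integrins, Icam1 was lower and Vcam1 higher in iMLL-ENL. Icam1, a ligand of beta2 integrins, had 19.4, 10.4 and 14.6 CPM in iMLL-ENL and 33.8, 45.1 and 28.3 CPM in wtLSK. It was lower without overlap (log2 fold change -1.12, SE 0.31, adjusted p = 0.0257), and the adjusted p was 0.0752 without wtLSK library 1 and 0.0862 without library 2. Icam2, another ligand of these integrins, ranged over 27.5 to 33.3 CPM in iMLL-ENL and 28.4 to 39 CPM in wtLSK (log2 fold change -0.07, SE 0.22, adjusted p = 0.849). Vcam1 (NCBI gene ID 22329, chr3:116110020-116129688, minus strand), the ligand of alpha4 beta1, had 48.8, 529.6 and 108 CPM in iMLL-ENL and 29.4, 18.9 and 4.64 CPM in wtLSK. All leukemic libraries were above the normal ones, but library 2 alone was at several times the level of the others (log2 fold change 3.83, SE 1.06, adjusted p = 0.0313). Without that library its log2 fold change was 2.31 and its adjusted p 0.0867, and without wtLSK library 1 the log2 fold change was 4.42. The call was also lost without iMLL-ENL library 3 (adjusted p = 0.0511) or wtLSK library 2 (0.0738) or 3 (0.076), and with no filter on low counts (0.119). Library 2 also had the highest neutrophil marker sum and the highest endothelial and stromal marker sum, the latter at 2.92, 10.7 and 3.3 CPM in iMLL-ENL. The part of these or any other cells in the Vcam1 level was not tested.

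Pecam1, the homophilic receptor CD31, had 107, 108 and 93.1 CPM in iMLL-ENL and 121, 157 and 142 CPM in wtLSK. It was a little lower in every leukemic library and not called (log2 fold change -0.29, SE 0.17, adjusted p = 0.237). Alcam, which encodes the CD6 ligand CD166, had 30.8, 118 and 80.8 CPM in iMLL-ENL and 109, 124 and 107 CPM in wtLSK. Library 1 was low and the groups overlapped (log2 fold change -0.40, SE 0.42, adjusted p = 0.505).

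Both cadherins were at low levels in this comparison. Cdh5, or VE-cadherin of endothelium, had 0.324, 1 and 0.132 CPM in iMLL-ENL and 4.4, 10.04 and 2.86 CPM in wtLSK. It was lower without overlap (log2 fold change -3.42, SE 0.84, adjusted p = 0.016), and the adjusted p was 0.0704 without wtLSK library 2. The log2 fold change was -4.46 without iMLL-ENL library 2. Cdh17, or LI-cadherin of intestinal epithelium, had 1.02, 0.611 and 1.32 CPM in iMLL-ENL and 0.161, 0 and 0.204 CPM in wtLSK. It was higher at these low levels (log2 fold change 3.09, SE 0.99, adjusted p = 0.0456) and lost the call in DESeq2 (adjusted p = 0.0585), with no filter (0.102), and without iMLL-ENL library 1 (0.078) or 3 (0.12) or wtLSK library 1 (0.143), 2 (0.112, log2 fold change 2.47) or 3 (0.121).

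The activators inside the cell were abundant in both groups. Tln1, which encodes talin, had 662, 469 and 784 CPM in iMLL-ENL and 418, 437 and 466 CPM in wtLSK. The lowest leukemic library was just above the highest normal one (log2 fold change 0.69, SE 0.22, adjusted p = 0.0461). That call was lost with DESeq2's size factors in edgeR (adjusted p = 0.0666), with no filter (0.0658), and without iMLL-ENL library 1 (0.0809) or 3 (0.141) or wtLSK library 1 (0.166), 2 (0.158) or 3 (0.127). Fermt3, which encodes kindlin-3 of blood cells, had 217, 196 and 197 CPM in iMLL-ENL and 123, 183 and 142 CPM in wtLSK. The separation was narrow (log2 fold change 0.60, SE 0.18, adjusted p = 0.0349), and the call was lost with no filter (adjusted p = 0.0681) and without iMLL-ENL library 1 (0.0733) or 3 (0.075) or wtLSK library 1 (0.19) or 3 (0.151). Exons of Tln1 overlap Creb3 and exons of Fermt3 overlap Trpt1, which the unstranded counts cannot separate.

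Genes that work with the members were read from 5 further lists, which were also chosen with earlier results of these data known. Of 29 integrin activation and adaptor genes tested, 11 were higher and 1 lower in iMLL-ENL, which is 41.4% called, beside 30.6% of all genes. The lower count was 3 without iMLL-ENL library 2 and 2 without iMLL-ENL library 3. Lyn, which encodes a Src-family kinase of blood cells, had 288, 526 and 567 CPM in iMLL-ENL and 134, 179 and 128 CPM in wtLSK (log2 fold change 1.81, SE 0.29, adjusted p = 0.00222). Flna, which encodes the actin linker filamin A that binds integrin tails, had 890.1, 922 and 2139.8 CPM in iMLL-ENL and 328, 276 and 382 CPM in wtLSK (log2 fold change 2.17, SE 0.38, adjusted p = 0.00354), and a log2 fold change of 1.54 without iMLL-ENL library 3. Ptk2, which encodes focal adhesion kinase, was the gene that was lower, at 0.417, 1.83 and 0.22 CPM in iMLL-ENL and 11, 8.89 and 10.3 CPM in wtLSK (log2 fold change -3.48, SE 0.76, adjusted p = 0.00928), and its log2 fold change was -4.81 without iMLL-ENL library 2.

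Of 8 other integrin and selectin genes tested, 2 were higher and 1 lower, or 37.5% called beside 30.6% of all genes. The higher count was 1 without wtLSK library 1 or 2, and the lower count 2 without iMLL-ENL library 2. Itgb2l, a relative of Itgb2 found in neutrophils, had 12, 53.6 and 64 CPM in iMLL-ENL and 0.269, 0.384 and 0 CPM in wtLSK (log2 fold change 7.78, SE 0.99, adjusted p = 0.000893), and a log2 fold change of 7.19 without wtLSK library 3. Sele, the E-selectin gene, had 34.1, 32.6 and 28.6 CPM in iMLL-ENL and 12.9, 9.22 and 19.5 CPM in wtLSK (log2 fold change 1.34, SE 0.32, adjusted p = 0.0146), and lost its call without wtLSK library 1 (adjusted p = 0.0719) or 2 (0.0508). Itga2b, the alpha subunit of the platelet fibrinogen receptor, had 1.62, 0.222 and 1.41 CPM in iMLL-ENL and 32.5, 24.4 and 34 CPM in wtLSK (log2 fold change -4.63, SE 0.62, adjusted p = 0.00102). Selp was lower in the same libraries. Itga2b is itself on the megakaryocyte and platelet marker list given above, so its change and that sum are not separate readings. The part of platelets in either gene was not tested.

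Among 10 genes of selectin ligand glycosylation, B4galt1, B3gnt2 and Fut4 were higher and St3gal6 lower, a called share of 40% beside 30.6% of all genes. The higher count was 0 without wtLSK library 1 and 1 without wtLSK library 3, and the lower count 0 without wtLSK library 2. Fut4, a fucosyltransferase of myeloid cells, had 39, 46.1 and 31.2 CPM in iMLL-ENL and 8.06, 22 and 11 CPM in wtLSK (log2 fold change 1.67, SE 0.37, adjusted p = 0.0102), with an adjusted p of 0.0508 without wtLSK library 1 and 0.0514 without library 3. B4galt1 and B3gnt2 had log2 fold changes of 0.96 (SE 0.20, adjusted p = 0.00677) and 0.84 (SE 0.18, adjusted p = 0.0099). Without wtLSK library 1 their adjusted p was 0.0515 and 0.0697, and without library 3 that of B3gnt2 was 0.0543. Of the B3gnt2 exon bases, 66% are shared with genes that were not counted. St3gal6, a sialyltransferase gene whose exons overlap Dcbld2, had a log2 fold change of -2.67 (SE 0.67, adjusted p = 0.0174), and of -1.76 without wtLSK library 2 (adjusted p = 0.0771).

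The list of other adhesion receptors and tetraspanins had 7 genes higher and 6 lower among 22 tested, with 59.1% called beside 30.6% of all genes. Ncam1, the neural cell adhesion molecule CD56, had 445, 404 and 314 CPM in iMLL-ENL and 1.02, 2.85 and 2.6 CPM in wtLSK (log2 fold change 7.65, SE 0.40, adjusted p = 1.43e-05). L1cam, another adhesion molecule of neurons, had 58.8, 41.1 and 59.2 CPM in iMLL-ENL and 1.29, 4.77 and 1.84 CPM in wtLSK (log2 fold change 4.51, SE 0.49, adjusted p = 0.000377; log2 fold change 5.15 without wtLSK library 2), and Ceacam1 128, 185 and 196 CPM in iMLL-ENL and 16.1, 22.1 and 16.2 CPM in wtLSK (log2 fold change 3.39, SE 0.26, adjusted p = 6.77e-05). Lower were the endothelial and stem cell genes Esam, Emcn and Cd34. Cd34 had 59.3, 18.9 and 94.4 CPM in iMLL-ENL and 514, 600.3 and 588 CPM in wtLSK (log2 fold change -3.13, SE 0.52, adjusted p = 0.00303), with a log2 fold change of -3.78 without iMLL-ENL library 3. Emcn had 0.278, 0.111 and 0 CPM in iMLL-ENL and 32.4, 37.4 and 28.8 CPM in wtLSK (log2 fold change -7.78, SE 0.69, adjusted p = 0.000145; log2 fold change -9.02 without iMLL-ENL library 1), and Esam had 1 count over the 3 iMLL-ENL libraries against 949 in wtLSK (adjusted p = 8.71e-05). Scaled by depth, Esam was 1047 times lower, with a counting interval from 187 to 41402. Small parts of the exons of Ncam1, L1cam, Cd34 and the matrix gene Fn1 overlap other counted genes.

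Among 7 matrix ligands tested, 2 were higher and 3 lower, or 71.4% called beside 30.6% of all genes. The higher count was 4 without iMLL-ENL library 1 and 1 without iMLL-ENL library 2 or wtLSK library 3. Fn1, which encodes fibronectin, had 1017, 442 and 3188 CPM in iMLL-ENL and 10.7, 31.3 and 11.5 CPM in wtLSK (log2 fold change 6.64, SE 0.90, adjusted p = 0.00139). Without iMLL-ENL library 3 its log2 fold change was 5.45. Spp1, which encodes osteopontin, had 12.8, 133 and 298 CPM in iMLL-ENL and 9.4, 7.57 and 7.4 CPM in wtLSK (log2 fold change 4.36, SE 0.98, adjusted p = 0.0124), and lost its call with no filter (adjusted p = 0.074) and without iMLL-ENL library 2 (0.0729) or wtLSK library 3 (0.0633). Without iMLL-ENL library 3, its highest, the log2 fold change of Spp1 was 3.25. Col4a1, of basement membrane collagen, had 0.463, 1.89 and 0.837 CPM in iMLL-ENL and 19, 21.1 and 21.2 CPM in wtLSK (log2 fold change -4.12, SE 0.54, adjusted p = 0.000875; log2 fold change -4.79 without iMLL-ENL library 2), and the laminin chain gene Lamc1 4.12, 7.94 and 6.3 CPM in iMLL-ENL and 36, 31.8 and 37.5 CPM in wtLSK (log2 fold change -2.37, SE 0.33, adjusted p = 0.00115). Vwf had 4.4, 0.5 and 3.88 CPM in iMLL-ENL and 14.4, 21.4 and 29.6 CPM in wtLSK (log2 fold change -2.73, SE 0.69, adjusted p = 0.0177), with an adjusted p of 0.069 without wtLSK library 3.

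The second comparison set leukemic cells with high B220 against those with low B220. Itgam, Itgb2, Itga2, Cdh17 and, by a narrow gap, Tln1 were each higher in all 3 B220High libraries than in any B220Low library. edgeR's quasi-likelihood test with Benjamini-Hochberg adjustment called, with all libraries, the filter and no block, 0 of the 30 members tested and 0% of all 12564 genes tested. At an unadjusted p under 0.05 there were 8 members and 880 genes, DESeq2 called 3 members and 232 genes, and edgeR without B220High library 1 called 2 members and 96 genes. Over the members the median log2 fold change was 0.33, beside -0.03 over all genes. Separation without overlap was seen for 5 members upward and 1 downward of the 30, and for 13.4% of all genes tested, 6.20% upward and 7.22% downward. The members not tested, Itga3, Itga7, Itga8, Itga9 and Itgb8, reached at most 2.38 CPM.

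Libraries with the same replicate number deviated together in this comparison, so a fit blocked on that number is given beside the calls it changes. That fit called 3 members higher and 0 lower, Itga1, Alcam and Cdh17, and 0.629% of all genes, with 0.581% of all genes higher. The labels do not say what the number marks.

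**Figure D4:**
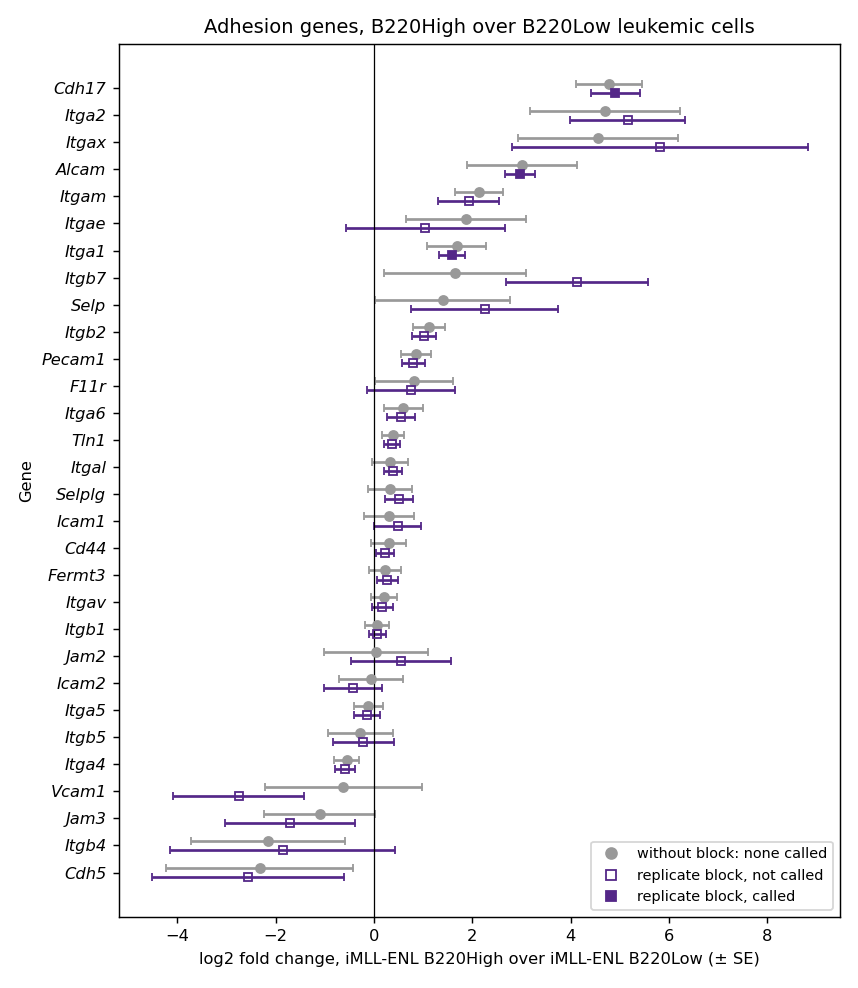
Log2 fold change of the 30 members tested (± SE), B220High over B220Low, without a block (grey dots) and blocked on the replicate number (purple squares, filled where the adjusted p was under 0.05). Cdh17 stands highest without the block at 4.79, and the filled squares are Cdh17, Alcam and Itga1.

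Itgam and Itgb2 were higher in every B220High library than in any B220Low library. Itgam had 346, 1388 and 834 CPM in B220High and 260.4, 153 and 207 CPM in B220Low. There was no overlap, though library 1 of B220High lay close to the B220Low range (log2 fold change 2.14, SE 0.49, adjusted p = 0.309). DESeq2 called it (adjusted p = 0.000379), as did edgeR without B220High library 1 (log2 fold change 2.54, adjusted p = 0.0234). Itgb2 had 346, 773 and 522 CPM in B220High and 296, 262 and 241 CPM in B220Low. Its B220High values were spread widely while its B220Low values were close together (log2 fold change 1.11, SE 0.33, adjusted p = 0.453). Itgal had 193, 192 and 99.8 CPM in B220High and 159, 169 and 68.2 CPM in B220Low and overlapped (log2 fold change 0.33, SE 0.37, adjusted p = 0.926). Itgax ranged over 3.02 to 54.4 CPM in B220High and 0 to 3.86 CPM in B220Low (log2 fold change 4.55, SE 1.63, adjusted p = 0.614), at a log2 fold change of 3.66 without B220High library 2 and 8.08 without B220Low library 1. Of the level per kilobase of the alpha subunits L, M and X, Itgam made up 75.5% ± 13.4 in B220High and 57.8% ± 14.3 in B220Low, ranges that overlapped.

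Myeloid markers varied between the sorted libraries. The neutrophil markers summed to 104 to 15493 CPM in B220High and 1234 to 6021 CPM in B220Low, and the monocyte and macrophage markers to 348 to 794 CPM in B220High and 255 to 416 CPM in B220Low. C1qa was at 0 in both groups and C1qb in B220Low. B220High library 1, with the lowest Itgam of its group, also had the lowest neutrophil and monocyte sums. In B220Low the order was the reverse. There library 1 had the highest Itgam and the lowest of both sums, and library 2 the lowest Itgam and the highest of both sums. With the block 2 of 7 neutrophil markers were called lower and 1 of 5 monocyte and macrophage markers higher, beside 0.629% of all genes. The part of these cells in the Itgam values was not tested.

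The collagen receptor subunits Itga1 and Itga2 had higher values in B220High in each numbered pair. Itga1 had 73.7, 52 and 189 CPM in B220High and 20.8, 25.1 and 56 CPM in B220Low. The groups overlapped through library 2 of B220High and library 3 of B220Low. Without the block the test gave log2 fold change 1.68, SE 0.60, adjusted p = 0.605, and with it log2 fold change 1.59, SE 0.27, adjusted p = 0.0446. The unblocked log2 fold change was 0.86 without B220High library 3 and 2.34 without B220Low library 3. Itga2 had 12.5, 1.05 and 13.6 CPM in B220High and 0.917, 0 and 0.18 CPM in B220Low. Libraries 1 and 3 of B220High were far above the rest and library 2 was just above B220Low (log2 fold change 4.71, SE 1.52, adjusted p = 0.519), at a log2 fold change of 6.43 without B220Low library 1. DESeq2 called it (adjusted p = 0.0177). The sum of the mast cell and basophil markers had the same order over the B220High libraries, at 956, 64.1 and 985 CPM there and 17.9, 26.7 and 58.8 CPM in B220Low. Most of the B220High sum was 1 gene, Cpa3, at 819, 52.5 and 876 CPM in B220High and 2.88, 0 and 11.4 CPM in B220Low. Of these 5 markers, 4 were tested, with log2 fold changes from -0.15 to 6.92. Of the 4, 2 overlapped between the groups and 2 were higher in B220High without overlap, beside 6.20% of all genes tested. With the block 2 of the 4 were called higher, beside 0.581% of all genes. Fcer1a was at 0 in both groups. The part of such cells in the Itga2 level was not tested.

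The other members of the beta1 family were closer together. Itgb1 had 202, 187 and 217 CPM in B220High and 176, 217 and 203 CPM in B220Low, nearly level (log2 fold change 0.06, SE 0.24, adjusted p = 0.982). Itga4 had 569.98, 347 and 291 CPM in B220High and 578, 624 and 588 CPM in B220Low. It was the 1 member whose B220High libraries all lay below the B220Low ones, by a small margin in library 1 (log2 fold change -0.55, SE 0.25, adjusted p = 0.728). Itga5 had 66, 94.3 and 90.4 CPM in B220High and 111, 72.5 and 102 CPM in B220Low (log2 fold change -0.12, SE 0.29, adjusted p = 0.975), and Itga6 217, 78.5 and 171 CPM in B220High and 162, 91.1 and 69.3 CPM in B220Low (log2 fold change 0.60, SE 0.40, adjusted p = 0.852), each with overlap. Itgav had 90.6, 86.2 and 119 CPM in B220High and 98.3, 80.2 and 91.2 CPM in B220Low and overlapped as well (log2 fold change 0.20, SE 0.27, adjusted p = 0.939).

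**Figure D5:**
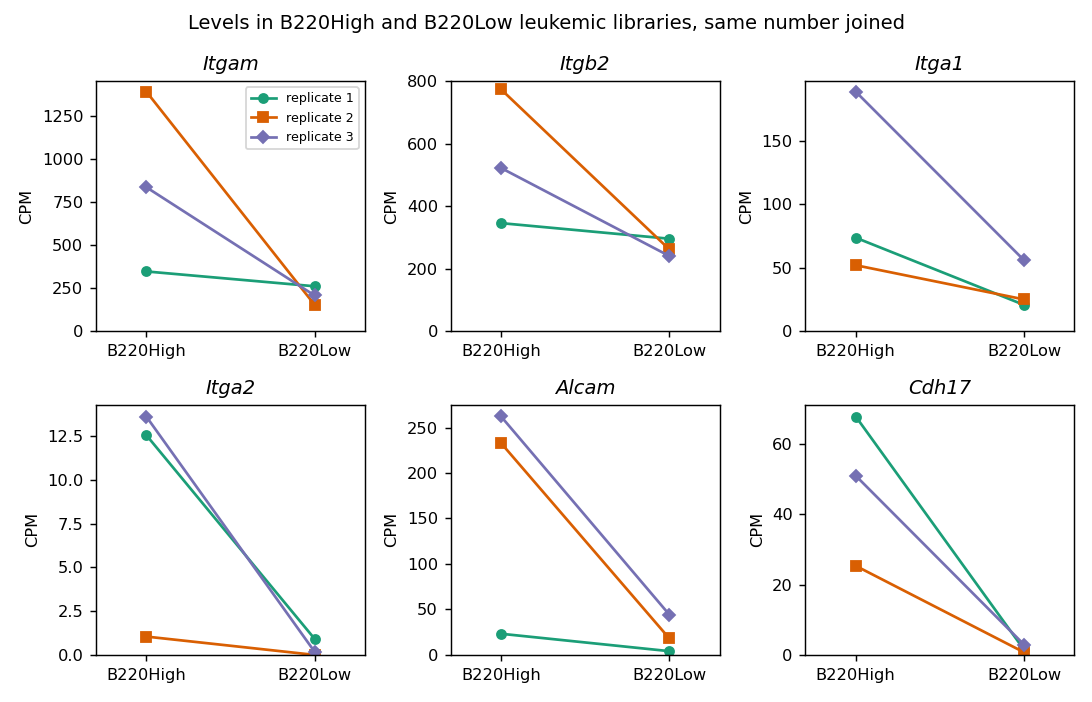
CPM of 6 members in each B220High (left) and B220Low (right) library, with lines joining libraries of the same replicate number. Each line falls towards B220Low for all 6 genes, and Alcam and Itga1 overlap between the groups.

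Alcam and Cdh17 were the other members called with the block. Alcam (NCBI gene ID 11658, chr16:52248996-52453081, minus strand) had 23.3, 233 and 262 CPM in B220High and 4.13, 18.2 and 44.3 CPM in B220Low. Pair 1 was low in both sorts, so the groups overlapped although B220High was higher in every pair. Without the block its test gave log2 fold change 3.01, SE 1.12, adjusted p = 0.66, and with it log2 fold change 2.97, SE 0.30, adjusted p = 0.00362. Without B220Low library 3 the unblocked log2 fold change was 4.10. Cdh17 (NCBI gene ID 12557, chr4:11758157-11817905, plus strand) had 67.8, 25.3 and 50.9 CPM in B220High and 1.51, 0.744 and 2.95 CPM in B220Low. The lowest B220High library was several times the highest B220Low library, at a fitted ratio of 27.6. Without the block its test gave log2 fold change 4.79, SE 0.67, adjusted p = 0.117, and with it log2 fold change 4.91, SE 0.49, adjusted p = 0.00363. Its unblocked log2 fold change was 5.51 without B220Low library 3. DESeq2 (adjusted p = 4.06e-12), edgeR with no filter on low counts (0.00738) and edgeR without B220High library 1 (0.0393) also called it. In unsorted leukemic marrow, counted in the other table, Cdh17 had 1.02, 0.611 and 1.32 CPM, and this level was not tested against the sorted cells.

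The remaining receptors were not called with or without the block. Cd44 had 526, 807 and 1121 CPM in B220High and 643, 593 and 858 CPM in B220Low (log2 fold change 0.30, SE 0.35, adjusted p = 0.932). Selplg had 228, 163 and 123 CPM in B220High and 271, 68.1 and 93.3 CPM in B220Low (log2 fold change 0.32, SE 0.45, adjusted p = 0.939; log2 fold change 1.04 without B220Low library 1). Pecam1 had 172, 73.9 and 119.9 CPM in B220High and 82.2, 60.8 and 63.9 CPM in B220Low (log2 fold change 0.86, SE 0.31, adjusted p = 0.605). These 3 overlapped between the sorts, Pecam1 only because library 2 of B220High fell among the B220Low values. Vcam1 had 1.74, 141 and 2.43 CPM in B220High and 18.2, 125 and 85.5 CPM in B220Low. Its values depended on the replicate, with library 2 highest in both sorts (log2 fold change -0.63, SE 1.60, adjusted p = 0.976). The log2 fold change was -5.14 without B220High library 2, -0.02 without B220High library 3 and -2.75 with the block. Selp had 3.48, 2.04 and 0.86 CPM in B220High and 0.393, 1.93 and 0.0601 CPM in B220Low (log2 fold change 1.40, SE 1.37, adjusted p = 0.908; log2 fold change 3.27 without B220Low library 2). F11r had 3.75, 7.47 and 9.15 CPM in B220High and 5.7, 4.76 and 2.11 CPM in B220Low (log2 fold change 0.81, SE 0.79, adjusted p = 0.909), and Icam1 28.4, 30.9 and 33.4 CPM in B220High and 37.5, 9.45 and 31.8 CPM in B220Low (log2 fold change 0.31, SE 0.50, adjusted p = 0.954). All 3 overlapped between the sorts, and the megakaryocyte and platelet markers, beside Selp, summed to 19.3 to 61.9 CPM in B220High and 2.08 to 5.57 CPM in B220Low. Their part in the Selp level was not tested.

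Itgb5 had 9.43, 4.68 and 8.14 CPM in B220High and 13.2, 4.61 and 10.2 CPM in B220Low, with overlap (log2 fold change -0.28, SE 0.66, adjusted p = 0.972). Cdh5 had 0.0916, 0.648 and 0 CPM in B220High and 2.55, 1.64 and 0 CPM in B220Low, close to the lowest levels that these depths resolve (log2 fold change -2.32, SE 1.90, adjusted p = 0.882; log2 fold change -4.83 without B220High library 2). Itgb7 ranged over 10.8 to 26.2 CPM in B220High and 0.0744 to 18.1 CPM in B220Low, where library 1 carried nearly all of it (log2 fold change 1.65, SE 1.44, adjusted p = 0.893). Without that library its log2 fold change was 6.20, and with the block 4.13. Itgae ranged over 0.253 to 18.8 CPM in B220High and 1.64 to 3.31 CPM in B220Low (log2 fold change 1.88, SE 1.22, adjusted p = 0.85; log2 fold change 0.63 without B220High library 2), and Icam2 over 5.13 to 36.6 CPM in B220High and 15.3 to 21.6 CPM in B220Low (log2 fold change -0.06, SE 0.65, adjusted p = 0.993). Itgb4, Jam2 and Jam3 stayed under 10 CPM in all 6 libraries and overlapped. Of the members not tested, Itga9 had 0.458, 0.199 and 2.38 CPM in B220High and 0, 0 and 0.662 CPM in B220Low, and Itga3 had 0, 0 and 0.0506 CPM in B220High and 0 counts in B220Low.

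Among the activators, Tln1 had 327, 339 and 379 CPM in B220High and 305, 246 and 282 CPM in B220Low. It was separated by a narrow gap (log2 fold change 0.38, SE 0.23, adjusted p = 0.812). Fermt3 had 147, 162 and 103 CPM in B220High and 142, 155 and 68.8 CPM in B220Low, with library 3 lowest in both sorts (log2 fold change 0.22, SE 0.32, adjusted p = 0.946).

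On the 5 further lists edgeR, with all libraries, the filter and no block, called 0 genes. With the block it called 1 of 26 activation and adaptor genes, 1 of 9 glycosylation genes, 2 of 20 other adhesion receptors, 1 of 7 matrix ligands and 0 of 6 other integrin and selectin genes tested, all higher, beside 0.629% of all genes. Gcnt1, a glycosyltransferase gene that builds selectin ligands, had 257, 206 and 321 CPM in B220High and 69.5, 41.4 and 58.2 CPM in B220Low, with log2 fold change 2.28, SE 0.30, adjusted p = 0.108 without the block and log2 fold change 2.27, SE 0.20, adjusted p = 0.00235 with it. It was also called without a block by edgeR with no filter (adjusted p = 0.00738) and without B220High library 1 (0.026), and by DESeq2 (4.03e-09). Fyb, which encodes an adaptor of integrin activation, had 106, 109.97 and 134 CPM in B220High and 25.3, 4.98 and 12.1 CPM in B220Low, with log2 fold change 3.15, SE 0.52, adjusted p = 0.132 without the block and log2 fold change 3.36, SE 0.47, adjusted p = 0.021 with it. Fyb too was called without a block by edgeR with no filter (adjusted p = 0.0217) and without B220High library 1 (0.0449), and by DESeq2 (2.8e-07), and its log2 fold change was 3.75 without B220Low library 1. Cdh1, the E-cadherin gene and ligand of Itgae, had 43.1, 169 and 34.1 CPM in B220High and 7.2, 5.58 and 0.541 CPM in B220Low, with log2 fold change 4.31, SE 0.97, adjusted p = 0.319 without the block and log2 fold change 4.43, SE 0.67, adjusted p = 0.0396 with it. DESeq2 called Cdh1 as well (adjusted p = 4.63e-06), and without B220High library 2 its unblocked log2 fold change was 3.20. The tetraspanin gene Cd53 and the laminin chain gene Lama5 were the other 2, at 1426, 1028 and 1509 CPM and 59.6, 2.24 and 33.8 CPM in B220High and 702, 652 and 583 CPM in B220Low and 9.36, 0.149 and 4.21 CPM in B220Low. With the block Cd53 had log2 fold change 1.06, SE 0.17, adjusted p = 0.0334, against log2 fold change 1.09, SE 0.24, adjusted p = 0.288 without it, and DESeq2 called it (adjusted p = 0.00323). For Lama5 the values were log2 fold change 3.09, SE 0.52, adjusted p = 0.0442 with the block and log2 fold change 2.85, SE 1.32, adjusted p = 0.733 without it, where the log2 fold change ran from 2.18 without B220High library 1 to 3.77 without B220Low library 1.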

How the data were processed

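The 12 RNA-seq libraries, 3 in each of 4 groups, were made from mouse marrow with an unstranded kit per the labels' protocols. The deposited count tables hold whole-number counts per gene by NCBI gene ID, with iMLL-ENL and wtLSK in one and the B220 sorts in the other. The authors deposited them with a gene width in bases, used here for levels per kilobase, and the submitters' processing notes list GRCm38, mm10 and edgeR. How reads were aligned and counted is not given in the sources used here. The deposited normalized tables were not used.

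Each comparison was fitted within its own table, over all genes, with edgeR 4.0.16 in R 4.3.3. The fit used TMM factors, filterByExpr with a minimum count of 10, and the robust quasi-likelihood F test, which is two-sided. A gene was called where its Benjamini-Hochberg adjusted p was under 0.05. SE is the size of the log2 fold change divided by the square root of F. Levels are CPM over the library total. Intervals cover counting error only.

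Alternatives were DESeq2's size factors (RLE) in edgeR, DESeq2 1.42.0, no filter, the replicate number as a block, and each library left out in turn. For B220High and B220Low, libraries of the same number deviated together from their groups, with correlations over genes of 0.394, 0.199 and 0.306, so these numbers were taken to pair the libraries, a pairing found in the data and not stated by the labels. Symbols came from RefSeq, which named 23968 of 24028 IDs and left 60 without a symbol. The main fit was also tried on simulated counts drawn with its own dispersions, and the outcome is not reported here. Per-library values are given for members called in either comparison or averaging at least 50 CPM in any group, and up to 3 called genes in each direction are named from each further list, though some genes that this rule or the marker lists hold are not reported here. With 0 genes called on the further lists in the second comparison, the 5 called with the block are named instead, chosen after their values were seen. The members and lists were chosen with earlier results of these data known.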

Additional observations from a re-analysis of the deposited data

How the results depend on the processing

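Between iMLL-ENL and wtLSK, 11 members were called higher and 8 lower. The higher count was 10 with DESeq2's size factors, 10 in DESeq2, 10 with the replicate block and 7 with no filter on low counts, and it ran from 5 to 10 when a library was left out. It was 5 without wtLSK library 1 or 3, and 6 without wtLSK library 2 or iMLL-ENL library 3. The lower count was 8 to 11 under the first 4 of these alternatives and 6 to 9 with a library left out. Calls for Itgam, Itgb2, Itga1, Cd44, Itga2, Itga6, Itga9, Selp and F11r passed under all 10 alternatives. Over all genes 4221 were called, and 2636 to 4528 with a library left out, the lowest counts being 2658 without wtLSK library 1 and 2636 without wtLSK library 3. The cause of these shifts was not tested, but each such fit has fewer samples. Same-numbered iMLL-ENL and wtLSK libraries correlated at 0.0148, 0.159 and -0.0357, so their numbers were not taken to pair them. The replicate block there added Itga4 (adjusted p = 0.0426) and Itgb7 (0.04) and ended the calls of Vcam1 (0.118) and Cdh17 (0.0711), and of Spp1 on the further lists (0.146).

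Between B220High and B220Low, where the numbers were taken from these data to pair the libraries, edgeR without the block called 0 members and 0 genes. DESeq2 called 3 members and 232 genes, no filter 1 and 22, and the replicate block 3 and 79, all members higher. With a library left out, 0 to 2 members were called higher and 0 to 96 genes were called, with 2 and 96 without B220High library 1 and 3 genes without B220Low library 1. DESeq2's size factors in edgeR called 0. Uncalled log2 fold changes that crossed 0 with a library left out ran, for iMLL-ENL over wtLSK, from -0.072 to 0.50 for Itgal, -0.19 to 0.14 for Itgb1, -0.014 to 0.62 for Itgae and -0.22 to 0.011 for Icam2, and, for B220High over B220Low, from -0.074 to 0.15 for Itgb1, -0.27 to 0.078 for Itga5, -0.00081 to 0.32 for Itgav, -0.032 to 0.58 for Cd44, -0.083 to 0.57 for Icam1, -0.94 to 0.39 for Icam2, -0.45 to 1.48 for Jam2 and -0.014 to 0.47 for Fermt3. Depth limits the members under 1 CPM, which rest on few counts.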

Other observations

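Markers of further cell types were also read in the libraries. Beside their counts, 15.5% of all genes tested were called higher and 15.1% lower in iMLL-ENL, and counts of 1 gene per list are near these shares. Of 6 stem cell and LSK markers, 5 were lower in iMLL-ENL and 1 was not called, with log2 fold changes from -10.7 to 0.35. The 6 summed to 688 to 904 CPM in iMLL-ENL and 2660 to 3161 CPM in wtLSK. They include Ptprc, the gene of CD45, so the sum is not one of stem cell genes alone. Of 5 erythroid markers tested, 4 were lower, with sums of 2.22 to 9.31 CPM in iMLL-ENL and 21.5 to 47.9 CPM in wtLSK. B cell markers summed to 19.0 to 27.6 CPM in iMLL-ENL and 36.6 to 151 CPM in wtLSK, with 2 of 5 tested lower. The 5 plasmacytoid dendritic cell markers summed to 291 to 500.2 CPM in iMLL-ENL and 433 to 848 CPM in wtLSK, with 1 lower. Mast cell and basophil markers summed to 25.9 to 68.4 CPM in iMLL-ENL, where Fcer1a was at 0, and to 45.8 to 51.4 CPM in wtLSK, with 1 of 4 tested higher. T cell markers summed to 29.6 to 51.4 CPM in iMLL-ENL and 40.6 to 57.5 CPM in wtLSK.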
